A study of Mus musculus with 10 samples.

Results

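ATM and ATR checkpoint signalling was followed through 10 genes, Atm, Atr, Atrip, Prkdc, Chek1, Chek2, Trp53bp1, Mdc1, Rnf8 and Uimc1, in mouse teratomas that differed in the human VHL protein they carried. The 10 genes were chosen by name for their place in the pathway, and of the probe sets annotated to exactly 1 gene, the brightest on average stood for each. All 10 were measured, of 18820 genes in all, and each had 1 such probe set, so no choice was made. A further probe set that names Atr together with another gene was left out. RNA was measured on 10 one-colour Affymetrix arrays, 1 per teratoma: 4 P81S, 3 R167Q and 3 wildtype. The tumours grew under the skin of female nu/nu mice from Vhl-/- J1 strain Sv/129 embryonic stem cells, so every group lacked functional mouse Vhl in the injected cells and differed in the human VHL cDNA, which carried P81S, R167Q or no change. The labels describe the P81S tumours as apoptosis-resistant and the R167Q and wildtype tumours as apoptotic. The 4 P81S arrays stand for 2 clones, with no label that ties an array to its clone. The labels name no promoter for the cDNA, no age of the hosts and no separate animal for each tumour, and the cells were injected into both flanks. The series title names the ATM-mediated DNA damage response as one of its subjects.

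Cells answer broken or stalled DNA through 3 related kinases. ATM is switched on at double-strand breaks, ATR with its partner ATRIP at stretches of single-stranded DNA, and DNA-PKcs, the product of Prkdc, at ends that are to be joined. CHK2 is best known as a substrate of ATM and CHK1 of ATR, and both can halt the cell cycle. On the chromatin beside a break, MDC1 binds phosphorylated H2AX, the ubiquitin ligase RNF8 follows it, and RAP80, the product of Uimc1, and 53BP1, the product of Trp53bp1, gather there. In mice Atr and Chek1 are needed by dividing cells of the early embryo. These proteins act largely through phosphorylation, and the arrays measured RNA only.

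The 10 genes lay on 6 chromosomes in the RefSeq annotation of GRCm38.p6, and 4 of them on chromosome 9. These were Atm (chr9:53437122-53536828), Atr (chr9:95857597-95953217), Atrip (chr9:109059747-109074124) and Chek1 (chr9:36708482-36726658). Prkdc lay at chr16:15637444-15842239, Chek2 at chr5:110839800-110874140 and Trp53bp1 at chr2:121194835-121296354. Mdc1 lay at chr17:35841495-35859670, Rnf8 at chr17:29614789-29641664 and Uimc1 at chr13:55027880-55100363. The positions of the array probes within the genes were not used here.

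Promoter windows, the 250 bases before a start site, were taken from RefSeq (GRCm38.p6) for 9 of the 10 genes. They were CpG-rich, with 11 to 24 CpG against a median of 6 over 32841 windows of the genome. Searched on both strands were the words TTTGGCGC, TTTCCCGC, TTTGCCGC and TTTCGCGC for E2F factors, CCAAT for the CCAAT box and TTTGAA for the cell cycle homology region. An E2F word stood in 2 of the 9 windows, those of Chek2 and Mdc1, against 1.86% of all windows and 4.19% of the 11684 windows with at least 11 CpG. The CCAAT box stood in 6 of 9, against 33.9% of all windows, and TTTGAA in 2 of 9, those of Rnf8 and Uimc1, against 16% (7.34% of the windows with at least 11 CpG). The windows of Atr, Chek1 and Trp53bp1 held none of these words. 7 windows are shown, picked by their words and by what the arrays found. Chek2 and Mdc1 carry an E2F word and a CCAAT box and fell in P81S tumours. Atr and Chek1 carry none of the words and fell too, while Trp53bp1 carries none and rose. Uimc1 and Rnf8 both carry a CCAAT box and TTTGAA, and of these Uimc1 fell and Rnf8 did not pass. Atm and Atrip, whose windows are not shown, carry only a CCAAT box, and Atm fell while Atrip did not pass. The link between words and readings was not tested. Capitals mark the words found; in Rnf8 the CCAAT box and TTTGAA share a base. The windows are Chek2 (chr5:110839733-110839982, plus strand), Mdc1 (chr17:35841248-35841497, plus strand), Atr (chr9:95857347-95857596, plus strand), Chek1 (chr9:36726659-36726908, minus strand), Trp53bp1 (chr2:121271408-121271657, minus strand), Uimc1 (chr13:55100301-55100550, minus strand) and Rnf8 (chr17:29614539-29614788, plus strand). That of Trp53bp1 lies wholly inside the gene's annotated span, and those of Chek2, with its E2F word, Mdc1 and Uimc1 run partly into theirs.
Chek2: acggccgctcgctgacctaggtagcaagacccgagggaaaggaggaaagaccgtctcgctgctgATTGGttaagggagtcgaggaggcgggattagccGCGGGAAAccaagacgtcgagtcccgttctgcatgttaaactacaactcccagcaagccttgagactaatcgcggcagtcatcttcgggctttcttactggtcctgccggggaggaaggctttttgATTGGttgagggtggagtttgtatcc
Mdc1: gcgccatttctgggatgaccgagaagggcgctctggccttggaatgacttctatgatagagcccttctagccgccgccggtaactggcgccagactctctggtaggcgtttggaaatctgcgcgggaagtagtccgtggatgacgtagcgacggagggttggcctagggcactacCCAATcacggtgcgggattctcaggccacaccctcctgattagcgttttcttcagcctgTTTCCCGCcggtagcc
Atr: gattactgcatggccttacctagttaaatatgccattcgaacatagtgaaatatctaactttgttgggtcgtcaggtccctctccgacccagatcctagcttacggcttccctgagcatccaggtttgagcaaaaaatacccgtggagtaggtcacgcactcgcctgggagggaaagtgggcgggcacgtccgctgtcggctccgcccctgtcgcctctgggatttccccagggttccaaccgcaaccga
Chek1: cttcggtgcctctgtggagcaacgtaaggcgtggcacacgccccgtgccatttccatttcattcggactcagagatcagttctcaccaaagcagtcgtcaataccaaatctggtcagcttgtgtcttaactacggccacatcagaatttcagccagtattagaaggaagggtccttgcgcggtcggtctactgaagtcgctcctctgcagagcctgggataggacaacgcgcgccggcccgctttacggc
Trp53bp1: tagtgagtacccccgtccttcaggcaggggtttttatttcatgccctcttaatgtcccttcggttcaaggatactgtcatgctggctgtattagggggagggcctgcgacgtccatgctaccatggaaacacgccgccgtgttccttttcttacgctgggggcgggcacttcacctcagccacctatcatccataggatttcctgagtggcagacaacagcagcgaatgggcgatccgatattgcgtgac
Uimc1: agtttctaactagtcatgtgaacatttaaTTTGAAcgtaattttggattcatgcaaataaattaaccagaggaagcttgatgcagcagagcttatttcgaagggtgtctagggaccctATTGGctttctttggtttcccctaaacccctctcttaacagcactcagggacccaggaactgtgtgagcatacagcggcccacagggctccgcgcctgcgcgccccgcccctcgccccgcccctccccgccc
Rnf8: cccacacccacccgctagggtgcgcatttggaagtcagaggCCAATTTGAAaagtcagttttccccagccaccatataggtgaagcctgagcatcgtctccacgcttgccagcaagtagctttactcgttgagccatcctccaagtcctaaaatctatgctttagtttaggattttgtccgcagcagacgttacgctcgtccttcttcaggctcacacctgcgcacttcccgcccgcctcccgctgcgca

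Before the results, 3 features of the arrays bear on them. The J1 donor line is male and the hosts were female. The mean of 3 Y-linked transcripts was 8.42 to 9.28 log2 in P81S arrays and 9.12 to 9.52 in R167Q arrays, but 4.26 to 4.70 in the wildtype arrays. The mean of the pluripotency markers was 10.08 to 10.80 log2 in the wildtype arrays, 9.18 to 10.11 in R167Q and 6.02 to 7.95 in P81S. The Y-linked mean is therefore not used here as a measure of donor cells. Its part in the differences from wildtype was not tested. P81S replicate 1 stood apart in tissue makeup, with a squamous epithelium marker mean of 9.17 log2 against 6.50 to 7.07 in the other P81S arrays. Genes of chromosome 11, which holds none of the 10 genes, had medians of -0.19 and -0.24 log2 in P81S replicates 1 and 2 relative to the wildtype mean, and -0.01 and 0.02 in replicates 3 and 4. For chromosome 9, with 4 of the 10 genes, the same medians lay between -0.01 and 0.04 in the 4 P81S arrays. Over all 35556 deposited probe sets, controls among them, the array medians lay between 6.97 and 7.11 log2.

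P81S against wildtype compares tumours with this VHL form and tumours with the normal protein. Clone and genotype cannot be told apart in it. Of the 10 genes, 7 fell, 1 rose (Trp53bp1) and 2 (Atrip and Rnf8) did not pass at an adjusted p under 0.05 in limma. This method compares group means with each gene's own spread, drawn towards that of genes at a similar level. Over all 18820 genes, 34.7% were called in this comparison, 17.5% lower and 17.2% higher. The P81S and wildtype arrays did not overlap for the same 8 genes, against 40.6% of all genes (20.7% lower, 19.9% higher). The median difference of the 10 genes was -0.81 log2, against 0.01 over all genes. In tumours of mixed tissue, fewer cells of a type and less RNA per cell cannot be told apart.

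**Figure D1:**
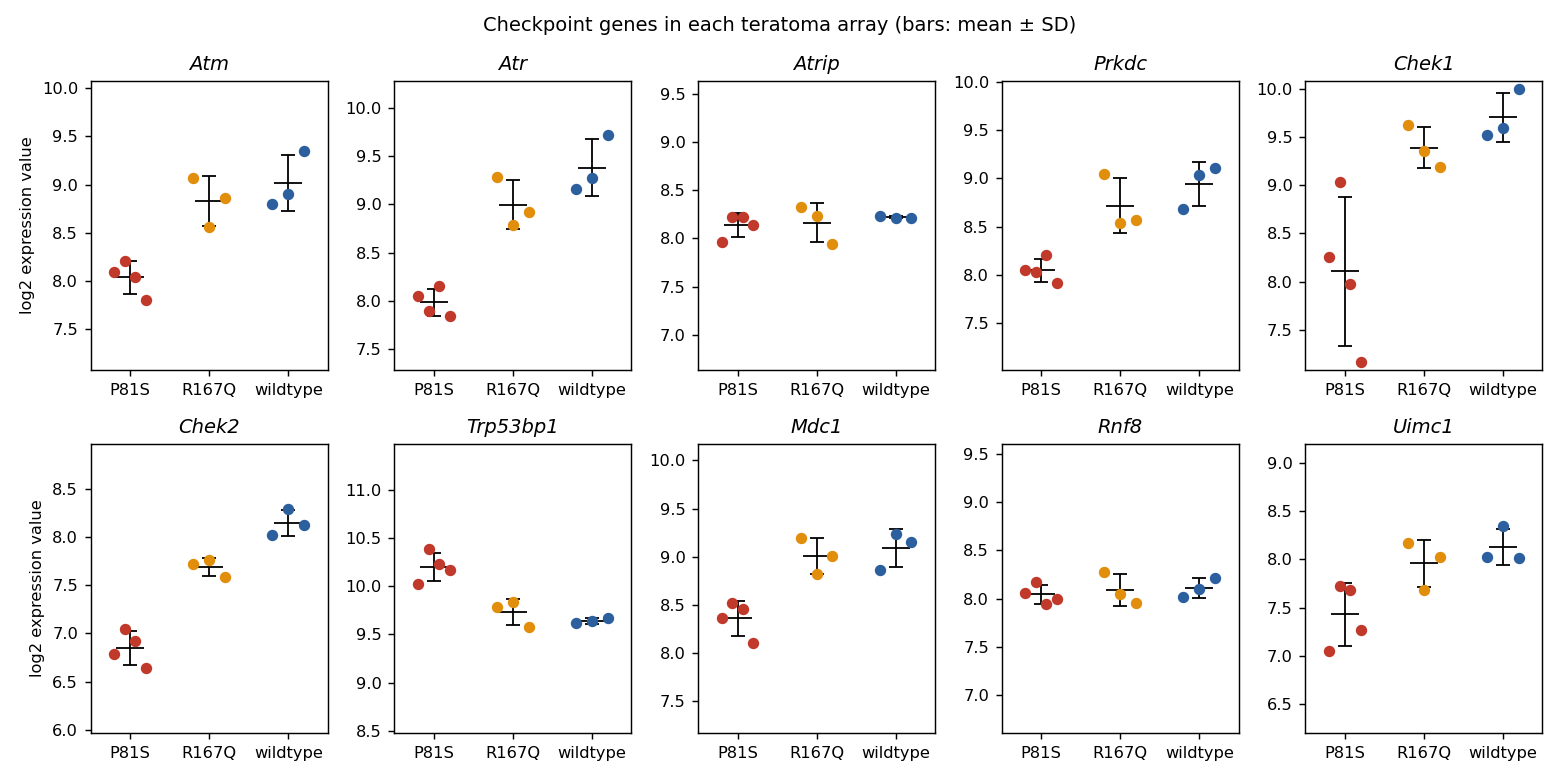
Log2 expression value of each checkpoint gene (vertical axis, the same span in every panel) in the P81S (n = 4), R167Q (n = 3) and wildtype (n = 3) arrays; points are arrays, bars the mean ± SD. The P81S arrays lie below the wildtype arrays for 7 genes, above them for Trp53bp1 (10.03 to 10.38 against 9.61 to 9.67), and overlap them for Atrip and Rnf8.

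Atm, the kinase of double-strand breaks, had log2 values of 8.10, 8.21, 8.04 and 7.80 in the P81S arrays (replicates 1 to 4, the order used throughout), 9.07, 8.56 and 8.86 in the R167Q arrays, and 8.80, 8.90 and 9.34 in the wildtype arrays. Every P81S array lay below every other array, and the R167Q and wildtype arrays overlapped. Atm was 1.97-fold lower in P81S than in wildtype (a log2 difference of -0.98 ± 0.17, SE; adjusted p = 0.00131) and 1.73-fold lower than in R167Q (-0.79 ± 0.17; adjusted p = 0.00794).

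Atr, the kinase of single-stranded DNA, read 8.05, 7.90, 8.15 and 7.85 log2 in the P81S arrays, 9.28, 8.79 and 8.92 in the R167Q arrays, and 9.16, 9.28 and 9.72 in the wildtype arrays. The P81S arrays again lay below all others, and 1 R167Q array reached the wildtype range. Atr was 2.63-fold lower in P81S than in wildtype (a log2 difference of -1.40 ± 0.17; adjusted p = 0.00014). Against R167Q it was 2.01-fold lower (-1.01 ± 0.17; adjusted p = 0.00212). Atr and Atm are separate kinases of 1 family, and both fell in P81S.

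Atrip, which binds ATR and carries it to single-stranded DNA, did not pass in any comparison. It read 7.96, 8.23, 8.22 and 8.14 log2 in P81S, 8.32, 8.23 and 7.94 in R167Q, and 8.24, 8.21 and 8.22 in wildtype. The 3 groups overlapped. The difference between P81S and wildtype was -0.09 log2 with a 95% confidence interval of -0.37 to 0.20 (adjusted p = 0.665) while that of Atr ended at -1.03 log2. Trex1, which encodes a DNA exonuclease, lies 23 bases from Atrip on the same strand and differed by 0.13 ± 0.16 log2 (adjusted p = 0.592).

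Prkdc, which encodes the catalytic subunit of DNA-PK, read 8.05, 8.03, 8.20 and 7.91 log2 in P81S, 9.05, 8.54 and 8.57 in R167Q, and 8.68, 9.03 and 9.11 in wildtype. The P81S arrays lay below all others. The gene was 1.86-fold lower in P81S than in wildtype (a log2 difference of -0.89 ± 0.16; adjusted p = 0.0014) and 1.59-fold lower than in R167Q (-0.67 ± 0.16; adjusted p = 0.0124). The call against R167Q ended without R167Q replicate 1 (adjusted p = 0.0641). The other kinases related to ATM on the list, Mtor and Smg1, differed between P81S and wildtype by -0.12 ± 0.09 and -0.13 ± 0.15 log2 (adjusted p = 0.359 and 0.552).

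Chek1, the effector kinase downstream of ATR, had the widest spread of the 10 genes and, over all 4 P81S arrays, the largest fall. That rank turned without P81S replicate 4, where the difference from wildtype was -1.35 log2 for Atr and -1.28 for Chek1. Its log2 values were 8.25, 9.04, 7.97 and 7.17 in P81S, 9.62, 9.36 and 9.19 in R167Q, and 9.52, 9.60 and 9.9976 in wildtype. All P81S arrays were lower than all others, but P81S replicate 2 lay only just under the lowest R167Q array while replicate 4 was far below. The SD was 0.77 log2 in P81S (n = 4), 0.22 in R167Q and 0.26 in wildtype (n = 3 each). Chek1 was 3.03-fold lower in P81S than in wildtype (a log2 difference of -1.60 ± 0.34; adjusted p = 0.0039), and the difference ran from -1.91 log2 without P81S replicate 2 to -1.28 without replicate 4, and was -2.14 without replicates 1 and 2 together and -1.06 without replicates 3 and 4 together. Against R167Q it was 2.44-fold lower (-1.28 ± 0.34; adjusted p = 0.0203), a call that ended without R167Q replicate 1 (adjusted p = 0.088).

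Chek2, the effector kinase downstream of ATM, separated all 3 groups. It read 6.78, 7.05, 6.92 and 6.64 log2 in P81S, 7.72, 7.77 and 7.58 in R167Q, and 8.03, 8.30 and 8.13 in wildtype. No array of any group overlapped another group, with R167Q between P81S and wildtype. Chek2 was 2.46-fold lower in P81S than in wildtype (a log2 difference of -1.30 ± 0.14; adjusted p = 8.83e-05) and 1.79-fold lower than in R167Q (-0.84 ± 0.14; adjusted p = 0.00223).

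Mdc1, the scaffold that reads phosphorylated H2AX, read 8.36, 8.52, 8.46 and 8.11 log2 in P81S, 9.19, 8.82 and 9.01 in R167Q, and 8.87, 9.24 and 9.16 in wildtype. The P81S arrays were below all others. It was 1.65-fold lower in P81S than in wildtype (a log2 difference of -0.72 ± 0.15; adjusted p = 0.00292) and 1.57-fold lower than in R167Q (-0.65 ± 0.15; adjusted p = 0.00968). The second of these calls ended without R167Q replicate 1 (adjusted p = 0.0555).

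Rnf8, the ubiquitin ligase that MDC1 recruits, read 8.05, 8.18, 7.94 and 7.9998 log2 in P81S, 8.27, 8.05 and 7.95 in R167Q, and 8.01, 8.10 and 8.22 in wildtype. The groups overlapped throughout. The P81S minus wildtype difference was -0.07 log2 with a 95% confidence interval of -0.35 to 0.21 (adjusted p = 0.732), so a fall as large as that of Mdc1 lay outside the interval.

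Uimc1 encodes RAP80, which binds the ubiquitin chains that RNF8 starts and brings the BRCA1-A complex to them. It read 7.05, 7.72, 7.68 and 7.27 log2 in P81S, 8.16, 7.69 and 8.03 in R167Q, and 8.03, 8.35 and 8.01 in wildtype. P81S lay below wildtype but overlapped R167Q. It was 1.62-fold lower in P81S than in wildtype (a log2 difference of -0.70 ± 0.20; adjusted p = 0.0171), and this call ended without wildtype replicate 2 (adjusted p = 0.08). Against R167Q the difference was -0.53 ± 0.20 log2 (adjusted p = 0.0784).

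Trp53bp1 went the other way. It read 10.03, 10.38, 10.23 and 10.17 log2 in P81S, 9.79, 9.84 and 9.58 in R167Q, and 9.61, 9.64 and 9.67 in wildtype. All 4 P81S arrays were above all others. Relative to wildtype the P81S mean was 1.47-fold higher (log2 0.56 ± 0.11; adjusted p = 0.00203), and relative to R167Q 1.38-fold higher (0.47 ± 0.11; adjusted p = 0.00989). Its annotated span overlaps by 6765 bases that of Map1a, a neuronal microtubule-associated protein gene on the opposite strand, which was 1.59 ± 0.17 log2 higher in P81S than in wildtype (adjusted p = 8.01e-05). The span also overlaps Tubgcp4 by 3936 bases, and Tubgcp4 differed by -0.42 ± 0.13 log2 (adjusted p = 0.0251), a call that ended without P81S replicate 3 (adjusted p = 0.053), wildtype replicate 1 (0.0615) or wildtype replicate 3 (0.0962). The part of these overlaps in the Trp53bp1 reading was not tested.

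**Figure D2:**
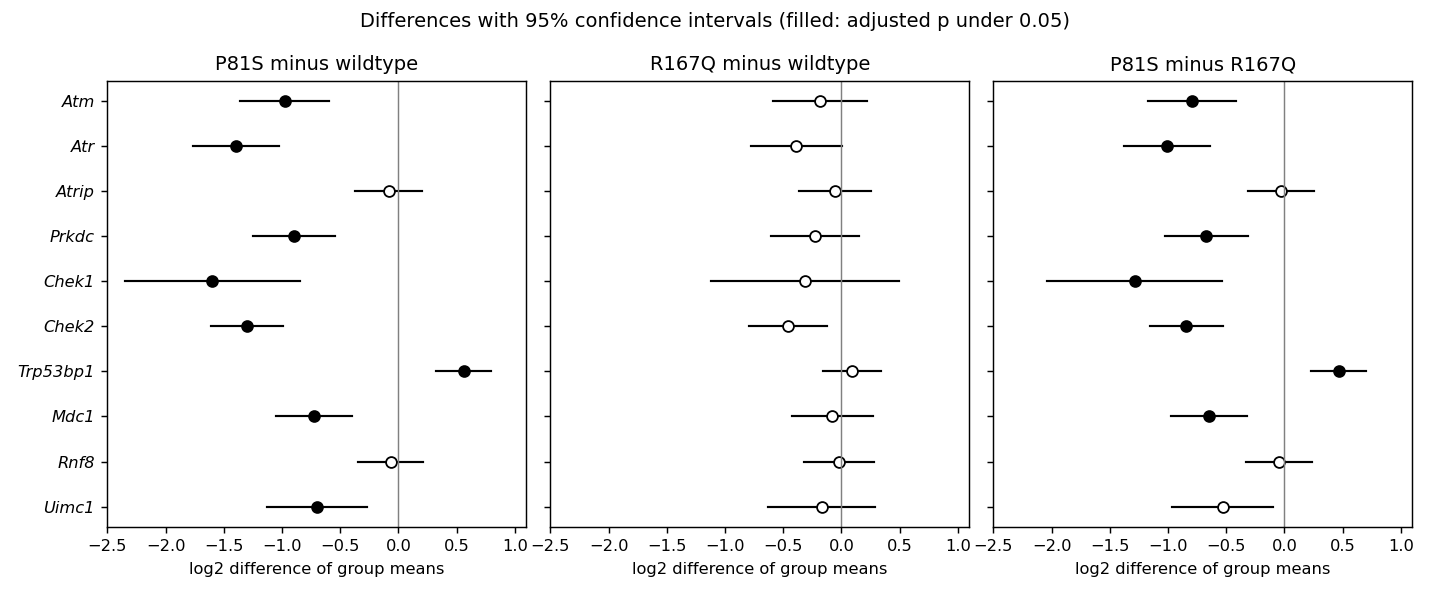
Log2 difference of group means for each gene (horizontal axis) in P81S minus wildtype, R167Q minus wildtype and P81S minus R167Q; lines are 95% confidence intervals from limma, and filled points passed at an adjusted p under 0.05. The comparisons with P81S have 8 and 7 filled points, and R167Q minus wildtype has 0.

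R167Q against wildtype sets 3 arrays of the other substitution against 3 of the normal protein. None of the 10 genes passed in limma, in which 0.0903% of all genes were called (0.0638% higher, 0.0266% lower). Of the 10, 1 gene, Chek2, had an unadjusted p under 0.05. The share of all genes at that level was not computed, so no excess is read from this or later counts of that kind. The median difference of the 10 genes was -0.18 log2, against -0.02 over all genes. Chek2 was 1.37-fold lower in R167Q (log2 -0.46 ± 0.15, 95% confidence interval -0.79 to -0.13; adjusted p = 0.382), and its arrays did not overlap those of wildtype, as held for 19.3% of all genes (12.4% lower, 6.93% higher). Atr differed by -0.39 log2 (-0.78 to 0.01; adjusted p = 0.517). The interval for Chek1 was wide, -1.12 to 0.49 log2 around a difference of -0.31. The intervals were -0.59 to 0.22 for Atm, -0.60 to 0.15 for Prkdc, -0.42 to 0.27 for Mdc1 and -0.63 to 0.29 for Uimc1.

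P81S against R167Q tests whether the tumours of the mutants differ, and it shares the P81S arrays with the first comparison. Of the 10 genes, 6 fell (Atm, Atr, Prkdc, Chek1, Chek2 and Mdc1), 1 rose (Trp53bp1) and 3 did not pass in limma, where 22.5% of all genes were called, 10.1% lower and 12.4% higher. The P81S and R167Q arrays did not overlap for the same 7, against 30.7% of all genes (14.2% lower, 16.5% higher). The median difference was -0.66 log2, against 0.02 over all genes. Without R167Q replicate 1 the number of genes called was 4, with Prkdc, Chek1 and Mdc1 lost. Without P81S replicate 2 it was 8, with Uimc1 gained. Without P81S replicates 3 and 4 together it was 2, Atr and Chek2, and without replicates 1 and 2 together it was 7. The wildtype arrays enter this comparison only through the spread shared across groups. The 3 Y-linked genes differed between P81S and R167Q by a median of -0.43 log2, with 0 called by limma and 1 at an unadjusted p under 0.05, and their part in the result was not tested.

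The wider pathway was read through 6 lists with 48 measured genes of 52 listed; Dclre1c, Pkmyt1, Trp53 and Tti2 were not analysed here. In P81S against wildtype 3 rose, 30 fell and 15 did not pass, beside 17.2% higher and 17.5% lower over all genes. The median was -0.79 log2, against 0.01 over all genes. In P81S against R167Q 2 rose, 25 fell and 21 did not pass, beside 12.4% higher and 10.1% lower over all genes. The median was -0.47 log2, against 0.02 over all genes. The counts of each list below stand beside the same shares. In R167Q against wildtype limma called 0 of the 48, beside 0.0903% of all genes. Of the 48, 7 had an unadjusted p under 0.05, a count with no share over all genes to set beside it. The 3 that rose in P81S against wildtype were Cdkn1a and, named after their values were seen, Herc2 and Babam1 (0.37 ± 0.11 and 0.32 ± 0.08 log2; adjusted p = 0.022 and 0.00946). Genes of chromosome 8, which holds Babam1, had medians of 0.16, 0.11, 0.11 and 0.13 log2 in P81S replicates 1 to 4, relative to the wildtype mean. In the R167Q and wildtype arrays these medians lay between -0.07 and 0.08. The part of this shift in the Babam1 reading was not tested. Of the 40 genes off chromosomes 8 and 11, 2 rose and 24 fell in P81S against wildtype. Of the 6 on chromosome 11, among them Rad50, Rpa1, Brca1 and Ppm1d, 6 fell. The lower chromosome 11 medians of P81S replicates 1 and 2 were given above, and their part in these 6 readings was not tested.

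**Figure D3:**
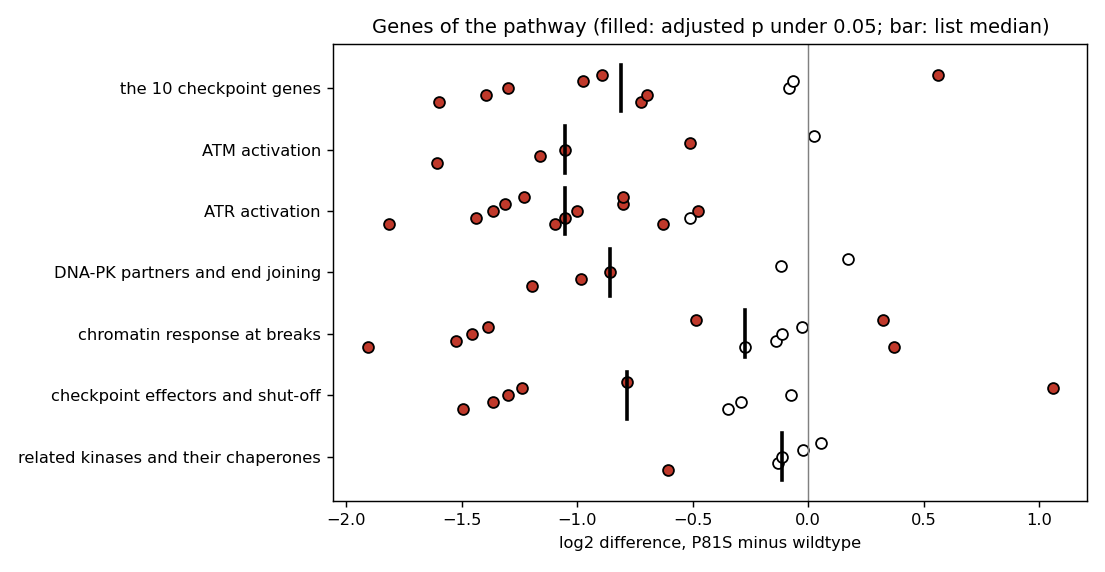
Log2 difference between P81S and wildtype (horizontal axis) for the 10 checkpoint genes and for the 48 measured genes of 6 pathway lists (rows); each point is a gene, filled where the adjusted p was under 0.05, and the bar is the list median. The medians of ATM activation and ATR activation lie near -1.05, and that of the related kinases near -0.12.

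Of the ATM activation list, which also holds the ATM substrate H2ax, 4 of 5 genes fell in P81S against wildtype. The list median was -1.05 log2. Mre11a, the nuclease of the complex that senses breaks, averaged 8.21 ± 0.22 log2 in P81S, 9.01 ± 0.11 in R167Q and 9.37 ± 0.22 in wildtype (SD), a difference between P81S and wildtype of -1.16 ± 0.15 (adjusted p = 0.000211). Its partner Rad50 differed by -1.61 ± 0.16 (adjusted p = 6.02e-05), and H2ax, the histone that ATM marks, by -1.05 ± 0.20 (adjusted p = 0.0017). The remaining gene, the acetyltransferase gene Kat5, named after its value was seen, differed by 0.03 ± 0.10 log2 (adjusted p = 0.88).

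Of the genes that bring ATR to stalled forks, 12 of 13 fell in P81S against wildtype and 0 rose, and 9 of 13 fell against R167Q. Tipin, of the fork protection complex, averaged 7.82 ± 0.42 log2 in P81S, 9.09 ± 0.04 in R167Q and 9.64 ± 0.18 in wildtype, a P81S minus wildtype difference of -1.81 ± 0.20 (adjusted p = 9.66e-05). The single-strand binding subunits Rpa2 and Rpa1 differed by -1.44 ± 0.17 and -1.002 ± 0.12 log2 (adjusted p = 0.000121 and 0.000167). The exception was Rad9b (-0.51 ± 0.21 log2; adjusted p = 0.0822), named after its value was seen.

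Among the partners of DNA-PK 3 of 5 fell in P81S against wildtype and 0 rose. The Ku subunits Xrcc5 and Xrcc6 differed by -1.20 ± 0.14 and -0.99 ± 0.18 log2 (adjusted p = 0.000113 and 0.0018), and Nhej1, the XLF ligation factor, by -0.86 ± 0.20 (adjusted p = 0.00627), a call that ended without P81S replicates 3 and 4 together (-0.61; adjusted p = 0.0595). Of the chromatin response list 2 of 11 rose, a share near the 17.2% of all genes called higher, and 5 fell. Abraxas1, which holds the BRCA1-A complex to RAP80, differed by -1.46 ± 0.12 log2 (adjusted p = 2.37e-05). Rif1, an effector of 53BP1, differed by -1.39 ± 0.16 (adjusted p = 0.000113), and Brca1, of the same complex as Abraxas1, by -1.91 ± 0.24 (adjusted p = 0.000165). Rif1 and Trp53bp1, whose products work together, went in opposite directions.

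Of the checkpoint effectors and the genes that end the signal 1 of 9 rose and 5 fell in P81S against wildtype. The share that rose was below the 17.2% of all genes called higher. Cdkn1a, the cell cycle inhibitor that p53 induces, averaged 11.65 ± 0.04 log2 in P81S, 10.98 ± 0.22 in R167Q and 10.59 ± 0.20 in wildtype, and was 1.06 ± 0.12 higher in P81S than in wildtype (adjusted p = 9.24e-05). Ppm1d, the phosphatase that reverses ATM and CHK2 signalling, differed by -0.78 ± 0.11 (adjusted p = 0.000285) and Wee1, the kinase that holds back CDK1, by -1.37 ± 0.24 (adjusted p = 0.00112). Of the related kinases and their chaperones 1 of 5 fell, a share near the 17.5% of all genes called lower. This was Tti1, of the TTT complex that helps these kinases fold, at -0.61 ± 0.11 log2 (adjusted p = 0.00157).

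Several marker lists moved beside these genes. In P81S against wildtype limma called 17.5% of all genes lower and 17.2% higher. Of 13 measured proliferation genes 12 fell and 0 rose in P81S against wildtype, with a median of -1.47 log2. The exception, named after its value was seen, was Mki67 at -0.76 ± 0.28 log2 (adjusted p = 0.055). Against R167Q Mki67 did not pass either, at -0.72 ± 0.28 log2 (adjusted p = 0.0868). The summed log2 value of the proliferation list ran from 116.3 to 132.1 in P81S, from 139.6 to 142.7 in R167Q and from 143.4 to 147.4 in wildtype. Of 12 pluripotency genes 12 fell, with a median of -3.39 log2 and sums of 72.2 to 95.4 in P81S, 110.1 to 121.3 in R167Q and 120.96 to 129.6 in wildtype. Of 7 measured neural genes 6 rose and 0 fell, with a median of 0.85 log2 and sums of 82.9 to 85.3 in P81S, 77.6 to 80.5 in R167Q and 75.8 to 78.3 in wildtype. No defining marker of these lists was at 0, since the log2 scale of the array has no zero level. Against R167Q, 12 of 13 proliferation and 12 of 12 pluripotency genes fell and 6 of 7 neural genes rose in P81S. Over all genes 10.1% fell and 12.4% rose there. In R167Q against wildtype limma called 0 genes of these lists, with 0, 2 and 2 at an unadjusted p under 0.05. Both measured erythroid genes, Alas2 and Slc4a1, rose in P81S against wildtype, with a median of 2.31 log2. Slc4a1 passed narrowly in limma (adjusted p = 0.04998), and its SD in P81S was 1.32 log2. Sums of the 2 genes were 15.1 to 20.9 in P81S, 15.7 to 20.9 in R167Q and 13.1 to 13.6 in wildtype. In R167Q against wildtype their median was 2.67 log2, with 0 called by limma and 2 at an unadjusted p under 0.05. Of the endothelial genes 1 of 4 fell in P81S against wildtype, Pecam1 (-1.40 ± 0.41 log2, adjusted p = 0.02). The other genes did not pass, with Cdh5 at 0.74 ± 0.62, Kdr at 0.85 ± 0.39 and Tek at -0.19 ± 0.37 log2. The endothelial median was 0.28 log2, so the list did not move as Pecam1 did. Its sums were 28.7 to 37.5 in P81S, 34.0 to 35.8 in R167Q and 31.5 to 35.8 in wildtype. In the same comparison 1 of 5 gut genes (Cdx2, adjusted p = 0.047) and 1 of 3 lymphocyte genes (Cd3e, adjusted p = 0.0442) fell. Both were dim, at 5.34 and 5.79 log2 in P81S and 5.83 and 6.28 in wildtype. Of the cartilage and muscle genes 1 of 6 rose. The gut count and the cartilage and muscle count lay near the shares over all genes. Called by limma were 0 of 5 squamous genes, with 0 at an unadjusted p under 0.05, and 0 of 6 macrophage genes, with 2. The part of these shifts in the readings of the checkpoint genes was not tested.

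Within P81S, replicate 4 was the lowest array for Atm, Atr, Prkdc, Chek1, Chek2 and Mdc1. Of these genes, replicate 2 was the highest for Atm, Chek1, Chek2 and Mdc1, and replicate 3 for Atr and Prkdc. For Uimc1, Atrip, Rnf8 and Trp53bp1 replicate 2 was also the highest. There the lowest array was replicate 1, or replicate 3 for Rnf8. The proliferation mean was 10.12, 10.16, 9.63 and 8.95 log2 in P81S replicates 1 to 4. Replicate 2 was highest and replicate 4 lowest there, as for Atm, Chek1, Chek2 and Mdc1 but not for the other genes. The pluripotency mean was 7.32, 7.95, 7.31 and 6.02 in the same arrays. The gap between replicates 2 and 4 was widest for Chek1, at 9.04 and 7.17, while Atm read 8.21 and 7.80 there and Chek2 7.05 and 6.64. The order rests on 4 arrays and was not tested.

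**Figure D4:**
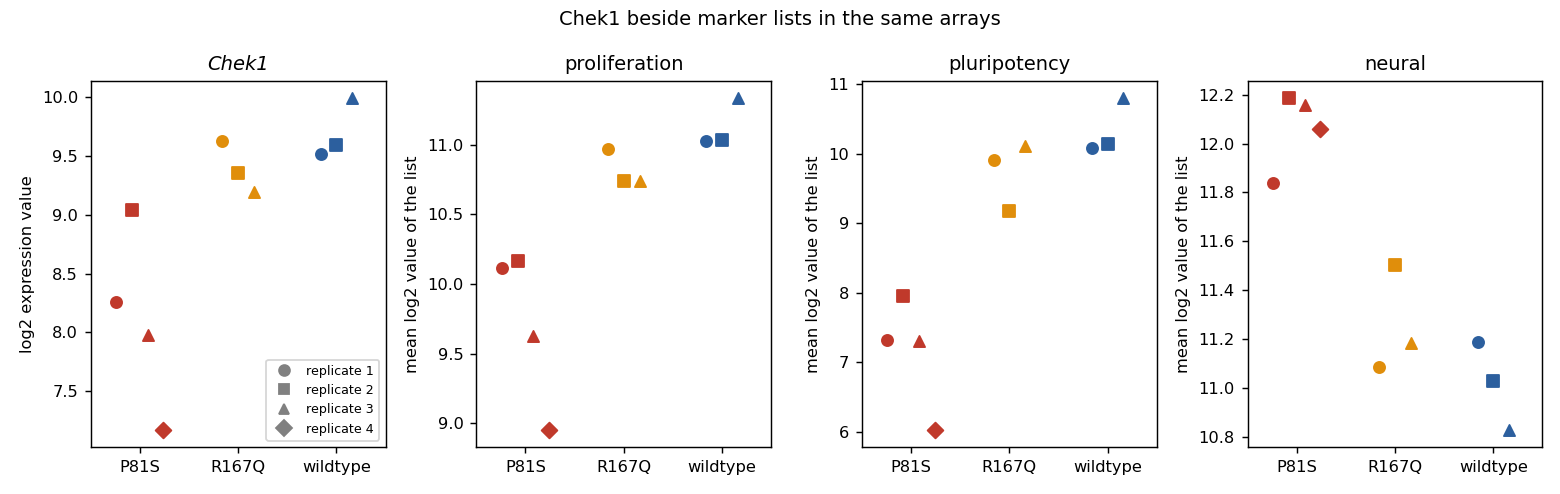
Chek1 (left) and the mean log2 value of the proliferation, pluripotency and neural lists in each P81S, R167Q and wildtype array; marker shapes give the replicate number, which pairs nothing across groups, and vertical axes differ between panels. P81S replicate 4 is lowest in the first 3 panels, at 7.17, 8.95 and 6.02 log2.

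For Atm, Atr, Chek1 and Chek2 the 3 genes with the nearest profile were found from the root mean square difference over the 10 arrays, after each gene's own mean was subtracted. For Atm these were Polr1a, Urb1 and Baz2a, at 0.06, 0.07 and 0.07 log2, against a median of 0.53 over all genes. For Atr they were Mybbp1a, Pfas and Eed, at 0.10, 0.11 and 0.11 (median 0.67). Chek1 lay nearest to Ect2, Cip2a and Fbxo5, at 0.09, 0.10 and 0.11 (median 0.87). For Chek2 they were Prim2, Riok2 and Psmg2, at 0.08, 0.09 and 0.11 (median 0.61). The 4 sets of nearest genes did not share a member. All 12 genes fell in P81S against wildtype, by 0.90 (Polr1a) to 1.78 (Fbxo5) on the log2 scale; likeness to a gene that fell fixes that direction.

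**Figure D5:**
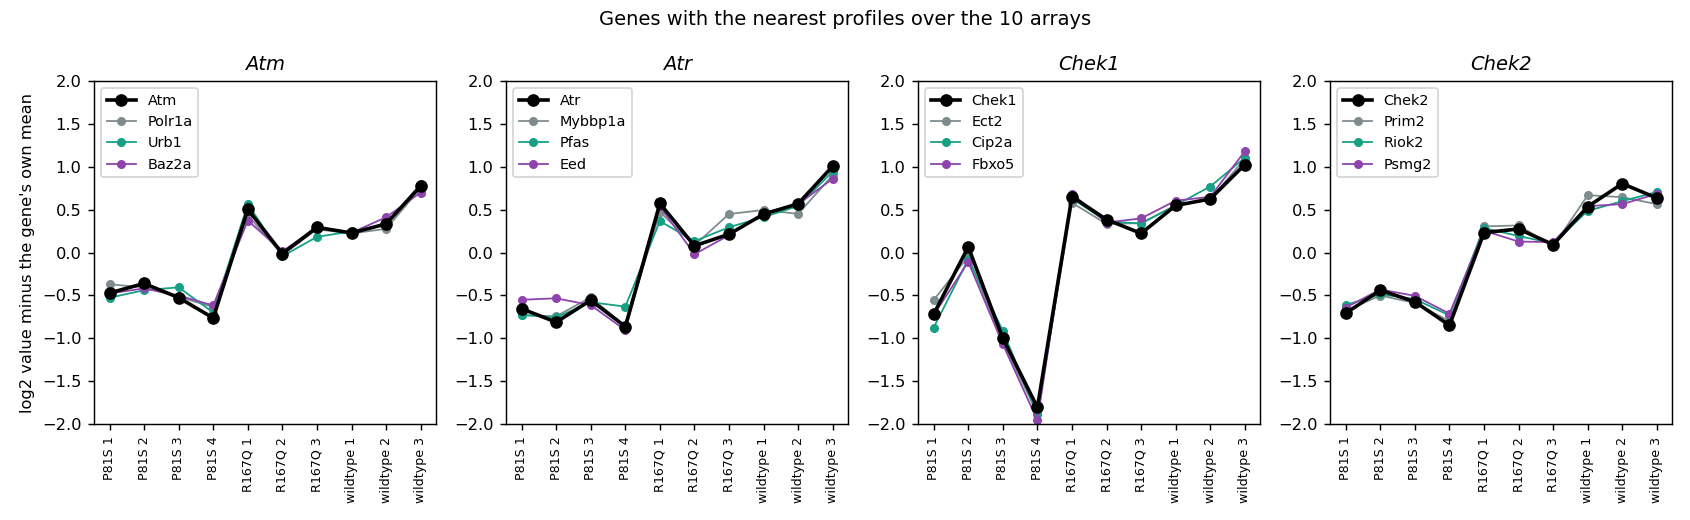
Log2 value minus the gene's own mean (vertical axis) across the 10 arrays for Atm, Atr, Chek1 and Chek2 (black) and the 3 genes nearest to each (colours). The Chek1 panel dips in P81S replicate 4, while the Atm, Atr and Chek2 panels are flatter across the 4 P81S arrays.

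Close neighbours on the chromosome were compared with the genes they adjoin. Npat, which encodes a regulator of histone transcription, lies 60 bases from Atm on the opposite strand and was -0.77 ± 0.13 log2 in P81S against wildtype (adjusted p = 0.000878), beside -0.98 for Atm. Mcm4, of the replicative helicase, lies 43 bases from Prkdc and differed by -1.26 ± 0.20 (adjusted p = 0.000745), beside -0.89 for Prkdc. Hscb, an iron-sulphur cluster co-chaperone gene, lies 6 bases from Chek2 and differed by -0.98 ± 0.19 (adjusted p = 0.00225), beside -1.30 for Chek2. Each of these 3 pairs fell together in P81S. Nrm, 640 bases from Mdc1, differed by -0.93 ± 0.19 (adjusted p = 0.00326), or by -0.28 (adjusted p = 0.173) as the mean of its probe sets, which disagreed. These neighbours were taken by distance, within 1000 bases, and the link between members of a pair was not tested.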

How the data were processed

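The authors deposited log2 expression values, 1 per probe set and array, for 10 teratomas. RMA and Partek are named, without version or role, per the submitters' processing notes; normalization settings are not given in the sources used here. Scanner files were not used, so signal over background is unknown; precision is limited by the number of arrays. Symbols come from the platform annotation, matched through Entrez numbers to RefSeq's gene table (GRCm38.p6): 21218 probe sets named 1 gene, 1881 several and 5841 none, beside a block of 6616 low-numbered ones taken as controls; 21185 numbers matched. Each of 18820 genes was represented by its highest-mean probe set. No filter on low values was used.

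Group means were compared with limma 3.58.1 (trend, two-sided, 7 residual degrees of freedom) in R 4.3.3, with Benjamini-Hochberg adjustment over all genes; errors are SE unless given as SD. The code was tested on simulated data. No source gives separate animals or cultures, so p-values measure the spread between these tumours, and clone and genotype cannot be told apart. The genes and lists were chosen with earlier results of these data known. Named were the 10 genes, up to 3 per pathway list by smallest p, and the 3 nearest profiles for each of 4 genes; neighbours and exceptions were added after values were seen. Alternatives covered normalization, dim genes, probe set choice, variance model, samples, weights, blocks and omitted arrays.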

Additional observations from a re-analysis of the deposited data

How the results depend on the processing

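In P81S against wildtype, 7 to 8 of the 10 genes and 27 to 35 pathway genes were called under the 25 alternatives, and in R167Q against wildtype 0 of either. Over all genes, R167Q against wildtype gave 17 calls, 11 without dim genes, 28 with all probe sets, 26 with only the compared groups, 42 with array weights and 5 to 21 with single arrays left out. In P81S against R167Q, leaving out single arrays gave 4 to 8 of the 10 genes, 16 to 29 pathway genes and 2328 to 4916 of all genes, lowest without R167Q replicate 1. Without P81S replicates 3 and 4 together these were 2, 16 and 2419, and without replicates 1 and 2 together 7, 28 and 5030. The cause was not tested.

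Directions that reversed were all of differences that had not passed. With single arrays left out, P81S minus wildtype ran from -0.27 to 0.0046 log2 for Smg1 and -0.0046 to 0.19 for Trex1. R167Q minus wildtype ran from -0.14 to 0.057 for Atrip, -0.19 to 0.015 for Mdc1, -0.11 to 0.049 for Rnf8, -0.16 to 0.11 for Smg1, -0.18 to 0.020 for Trex1 and -0.20 to 0.0093 for Tubgcp4. P81S minus R167Q ran from -0.14 to 0.052 for Atrip, -0.12 to 0.045 for Rnf8 and -0.079 to 0.011 for Mtor. With array weights, Smg1 was at 0.0073 in P81S and 0.014 in R167Q against wildtype, Rnf8 at 0.0016 in R167Q against wildtype and Atrip at 0.021 in P81S against R167Q. Without P81S replicates 3 and 4, Rnf8 was at 0.0054 against wildtype and 0.026 against R167Q; without replicates 1 and 2, Atrip and Smg1 were at 0.014 and 0.0013 against R167Q. The cause was not tested.

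Replicate numbers did not pair the arrays: deviations of same-numbered arrays correlated at -0.28 to 0.21 over genes, 2 of 9 pairs above 0.1, and an array's best match in another group had its number in 4 of 18 cases. With the replicate number as a block, 7 of the 10 genes and 29 pathway genes were called in P81S against wildtype (8 and 33 without it). In P81S against R167Q these were 5 and 19 (7 and 27), and in R167Q against wildtype 0. The calls of Uimc1 and Tubgcp4 against wildtype ended with the block (adjusted p = 0.0701 and 0.0702). So did those of Prkdc and Mdc1 against R167Q (adjusted p = 0.0637 and 0.051). Only P81S has a replicate 4, so the block takes that array out of the comparisons. The Uimc1 difference from wildtype was -0.65 log2 both with the block and without P81S replicate 4. In these lost calls, pairing and the loss of that array cannot be told apart. Splits of the P81S arrays into clones of equal size, as a random block, changed no call of the 10 genes. The estimated correlations within blocks were 0.05, -0.23 and -0.03. At values near or below 0 the block could not show what shared clones do to the calls. Unequal splits were not tried.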
